A study of Mus musculus with 8 samples.

Results

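The genes described here are 35 mouse genes of homologous recombination, the Fanconi anaemia pathway and mismatch repair, among 21339 genes and annotated features tested on the same arrays. They were taken as every non-control probe whose deposited gene name is one of the 35 symbols, which gave 50 probes, of which 49 passed the filter on dim probes. All 35 genes were well above background on all 8 arrays. The set is broader than those pathways, since it also holds the base excision enzyme Ung, the replication bypass ligase Rad18, the end-joining polymerase Polq and 4 genes of the ATR checkpoint. RNA came from wk3, a mouse pre-B cell line with a SLP-65-/- genotype, so every group lacked this adaptor protein of the pre-B cell receptor. Cells were infected with retroviral vectors and selected with puromycin, and they carried either a scrambled sponge as the control or a sponge for the miR-15 family. A sponge is a transcript with binding sites that sequester a microRNA family. The groups were scrambled cells with excess interleukin 7 (IL-7), sponge cells with excess IL-7, and each of these after 36 h without IL-7, with 2 arrays in each group. The 2 arrays of a group came from separate experiments with independently made clones, so the spread between them includes the spread between clones.

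Homologous recombination mends broken DNA by copying an intact sister chromatid, with PALB2 and BRCA2 acting after nucleases have trimmed the ends. The Fanconi pathway takes apart crosslinks between DNA strands: a core complex attaches ubiquitin to the FANCI and FANCD2 pair, which then recruits nucleases and the recombination machinery. Mismatch repair removes copying errors, and all of these systems are used most in cells that replicate their DNA, as pre-B cells do while IL-7 drives their division. In pre-B cells the loss of the IL-7 signal goes with an exit from the cell cycle and with rearrangement of the light chain genes.

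The sponge was designed against the mature microRNAs whose RefSeq sequences (GRCm38.p6) follow, shown because they are what it was meant to bind. Their levels in these cells, and how far the sponge sequestered each of them, were not tested. The capitals mark bases 2 to 8, the seed, which pairs with targets. All 6 share the seed AGCAGCA.
mmu-miR-15a-5p: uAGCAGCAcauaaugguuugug
mmu-miR-15b-5p: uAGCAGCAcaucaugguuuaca
mmu-miR-16-5p: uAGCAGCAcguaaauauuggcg
mmu-miR-195a-5p: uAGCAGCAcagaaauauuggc
mmu-miR-497a-5p: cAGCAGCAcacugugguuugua
mmu-miR-322-5p: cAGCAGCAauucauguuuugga

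For the motif search, the RefSeq promoter table for GRCm38.p6, which gives 250 bases before and 50 bases after a transcript start chosen for each window, held 31 windows for 28 of the 35 genes. An E2F motif (TTTCCCGC, TTTCGCGC, TTTGCCGC or TTTGGCGC, on either strand) was present in 8 of these windows (25.8%), which belong to 7 genes, against 2.26% of all 32851 windows in the table. The genes were Clspn, Bard1, Brca2, Topbp1, Fancg, Msh6 and Rad51c. The CCAAT motif was present on either strand in 18 windows (58.1%) of 17 genes, against 37.4% of all windows. The cell cycle homology motif, CHR (TTTGAA or TTCGAA, on either strand), was present in 3 windows (9.68%), against 19.2%. In the windows of these genes no E2F match shared a base with a match of the other motifs. A match is a string of letters and does not show that a factor binds there. The start used by that table is not always the outermost start in the RefSeq gene table, and of the 7 genes only Bard1 has its match wholly before the annotated gene. The 81 bases of the Bard1 window that precede the gene are shown for that reason, with the match, which begins 40 bases before the gene, in capitals. Over the 7 genes with an E2F match the median log2 change on withdrawal in scrambled cells was -1.15, and over the 21 genes with a window but no match it was -1.45. Of the 7, 6 were called lower there, and Rad51c, with a match in each of its 2 windows, was not (-0.12, adjusted p = 0.315).
Bard1, chr1:71103142-71103222, minus strand: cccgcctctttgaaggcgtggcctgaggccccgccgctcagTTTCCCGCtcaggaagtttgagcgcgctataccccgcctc

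Levels are log2 values of the processed signal relative to the 75th percentile of the same array, so that a level of 0 equals that percentile. Levels of different genes come from different probes and are not compared with each other. The number of arrays limits the precision, as does the signal, and 50.6% to 56.6% of the spots on an array lay well above background. Changes are log2 differences ± SE from limma fitted to all 8 arrays (n = 2 arrays a group), and a gene was called at a Benjamini-Hochberg adjusted p under 0.05 over all 21339 genes. The verbs rose and fell are kept for genes that passed this test. The 8 arrays shared 1 slide and 1 scan, with those with IL-7 in slide column 1 and the others in column 2, and with the constructs in separate rows. Slide position and the groups therefore cannot be told apart. In a culture measured in bulk, fewer dividing cells and less RNA per cell cannot be told apart either. Each slide row held the arrays with and without IL-7 of the same construct and replicate number. A slide row block therefore also pairs those arrays, whereas the main fit had no block.

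All 8 listed markers of a pre-B cell, Rag1 and Vpreb1 among them, were well above background on all arrays. Detection alone does not set this list apart. In each group, 3 of 4 NK cell markers and 3 or 4 of 6 myeloid markers were well above background on both arrays. Sums of linear levels, in multiples of the 75th percentile of the array, are given to compare groups within a list, not lists with each other. The pre-B cell sums were 1360 to 1400 in scrambled cells with IL-7 and 1470 to 1500 without. In sponge cells they were 1180 to 1350 with IL-7 and 1230 to 1240 without. Without IL-7, 5 of the 8 markers were lower in sponge cells and 0 higher, against 15.3% and 16.7% of all tested genes. With IL-7, 1 marker, Rag1, was lower in sponge cells (-2.39, limma, adjusted p = 0.0253) and 0 were higher, against 0.815% and 0.314%. On withdrawal in scrambled cells 5 markers rose, Rag1 by 3.59, and 1, Igll1, fell by 0.39, against 20.7% and 27.4% of all tested genes. Of 6 T cell markers, 3 (Cd3e, Cd4 and Lck) were well above background in every group, Cd3g and Thy1 on 0 arrays, and the sums were 17.0 to 17.6 in scrambled cells with IL-7, 19.4 to 19.7 without, 13.5 to 14.0 in sponge cells with IL-7 and 13.6 to 14.1 without. The myeloid sums were 16.0 to 21.4, 27.1 to 27.5, 14.0 to 18.1 and 17.8 to 18.5 in the same order, and the sums of the NK cell list were 2.97 to 3.81 over all arrays. Erythroid and fibroblast lists summed to at most 0.130 and 0.163. The part of these cells in the results below was not tested. A reference list of 8 genes of cycling cells (Mki67, Top2a, Ccna2, Ccnb1, Cdk1, Mcm2, Mcm5 and Pcna) summed to 646 to 697 in scrambled cells with IL-7, 777 to 808 in sponge cells with IL-7, 210 to 268 in scrambled cells without IL-7 and 579 to 582 in sponge cells without IL-7. The share of the repair genes' changes that goes with the number of cycling cells was not tested.

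The first comparison asked how repair genes respond to the loss of IL-7 in scrambled cells. Of the 35 genes, 32 fell and 0 rose, against 27.4% of all tested genes that fell and 20.7% that rose (48.0% called in either direction). The median of the 35 log2 changes was -1.45, and that of all tested genes was -0.02. There were 12 genes lower by 2 log2 units or more, 12 lower by 1 to 2 units, 10 lower by less than 1 unit and 1, Fance, above 0. The arrays of the groups did not overlap for 33 genes, all lower without IL-7, as for 39.8% of all tested genes, with 35.2% apart in the other direction. The level kept after withdrawal ranged from 17.8% to 125.7% of the level with IL-7. The reference list of cycling cells had 8 of 8 genes lower, with a median of -1.68.

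**Figure D1:**
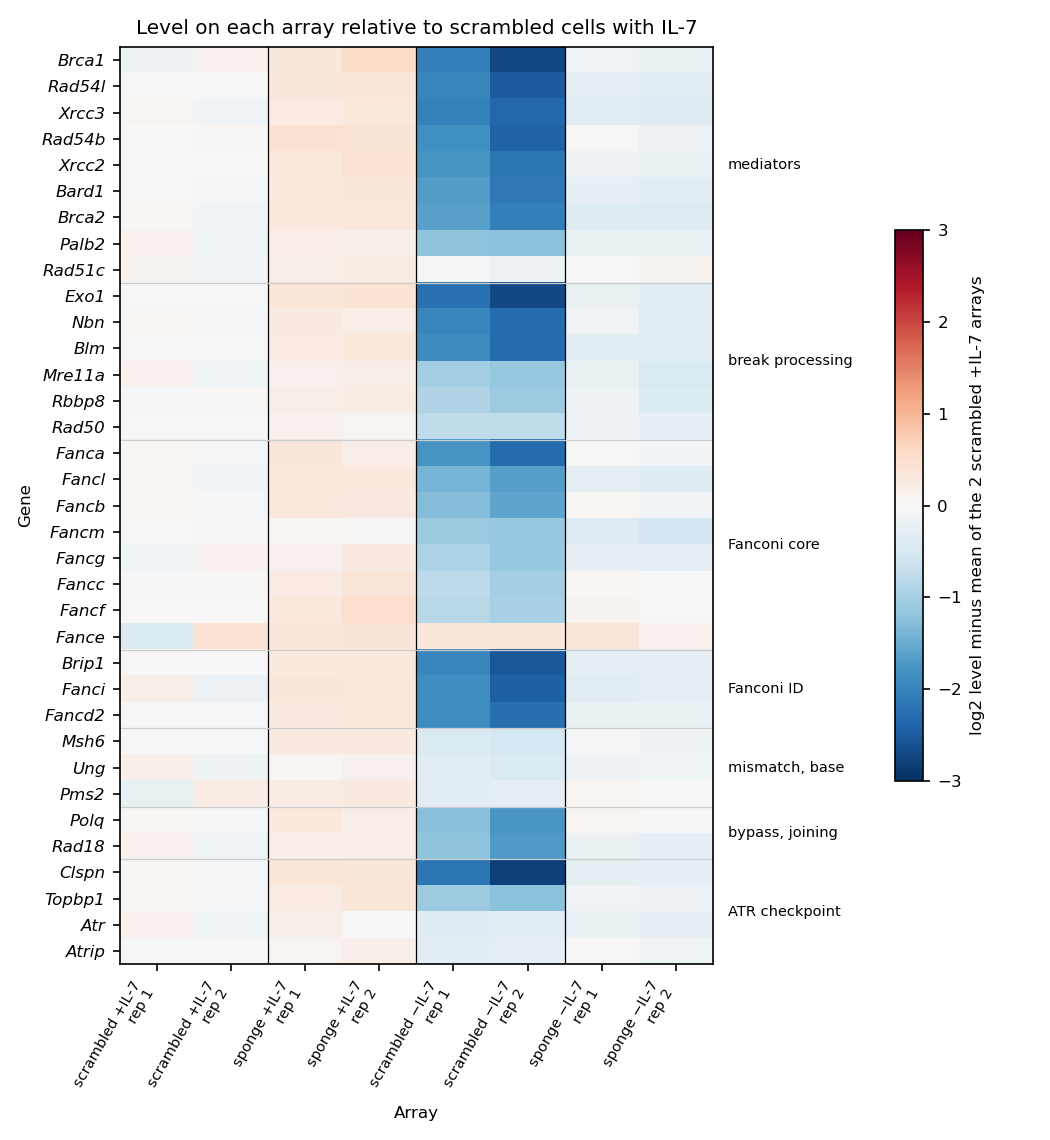
Level of each of the 35 genes (rows, grouped by role) on each of the 8 arrays (columns), as a log2 difference from the mean of the 2 scrambled arrays with IL-7 (colour scale from -3 to 3). The scrambled arrays without IL-7 are blue for most genes, with 12 of 35 genes lower by 2 log2 units or more. They are darker in replicate 2, where 31 of 35 genes were lower than in replicate 1. The sponge arrays without IL-7 are pale, and there 30 of 35 genes were lower in replicate 2. The shares over all tested genes were not counted.

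The second comparison asked the same in sponge cells. Here 16 of 35 genes fell and 0 rose, with 15.2% of all tested genes lower and 7.91% higher (23.1% called in either direction), and the median log2 change was -0.46 (all tested genes, -0.06). No gene of the set was lower by 1 log2 unit or more, and the level kept was 62.0% to 91.4%. All 35 genes were lower on both sponge arrays without IL-7 than on both with IL-7, an arrangement found for 40.3% of all tested genes, with 25.6% apart in the other direction. The number called depended on single arrays and on scaling: it was 2 without sponge replicate 1 of either group and 0 without sponge replicate 2 of either group, and 4 under quantile normalization. Under quantile normalization the share of higher genes among all those at an unadjusted p under 0.05 moved from 35.6% to 50.2%, while the median change of the 35 genes was -0.41. With the slide row as a block, 5 of the 35 genes were called. In that fit 24 were lower at an unadjusted p under 0.05, against 22.1% of all tested genes. The reference list of cycling cells had 4 of 8 genes lower, with a median of -0.46.

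**Figure D2:**
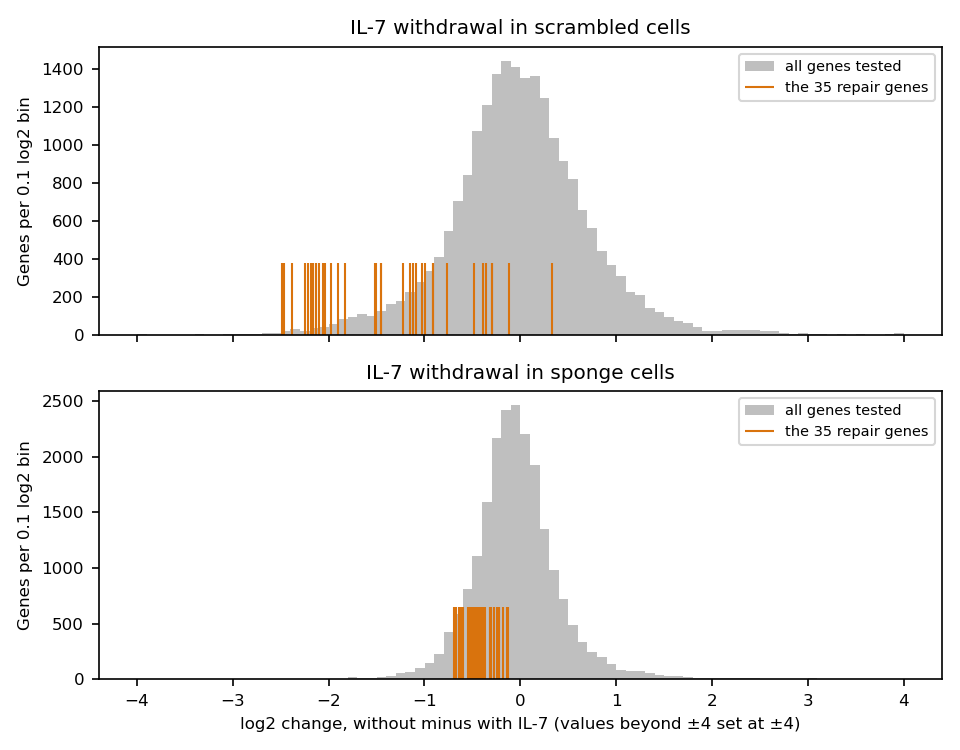
Distribution of the log2 change on IL-7 withdrawal over all 21339 tested genes (grey bars, genes per bin) and the values of the 35 repair genes (orange lines), in scrambled cells (top) and sponge cells (bottom). The repair genes spread from -2.49 to 0.33 in scrambled cells and from -0.69 to -0.13 in sponge cells.

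The difference between these changes was then tested itself, as the interaction of sponge and withdrawal. It was called for 21 of the 35 genes, against 4.32% of all tested genes called in that direction and 0.951% in the other (5.27% in all). Each of the 21 had a smaller negative change in sponge cells, and not all of these sponge changes were called. The median difference was 1.04, and over all tested genes -0.04. Taken by replicate number, the difference was above 0 in both replicates for 31 of the 35 genes. The share over all tested genes was not counted. For the 21 called genes it was 0.65 to 1.67 in replicate 1 and 0.57 to 2.11 in replicate 2. These values entered the call itself, so they are not separate evidence for it. With the replicate number as a block, 0 of the 35 genes and 0 of all tested genes were called (lowest adjusted p of the set, 0.0509, limma), while 28 of the 35 had an unadjusted p under 0.05 without the block and 28 with it, against 12.8% and 13.1% of all tested genes in that direction. With the slide row as a block, 0 of the 35 genes were called (lowest adjusted p, 0.0932, limma). In that fit 26 were higher at an unadjusted p under 0.05, against 12% of all tested genes. The number called was also 0 without scrambled replicate 1 with IL-7, without scrambled replicate 2 without IL-7 and without any of the 4 sponge arrays, and it was 15 without scrambled replicate 2 with IL-7 and 19 without scrambled replicate 1 without IL-7.

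**Figure D3:**
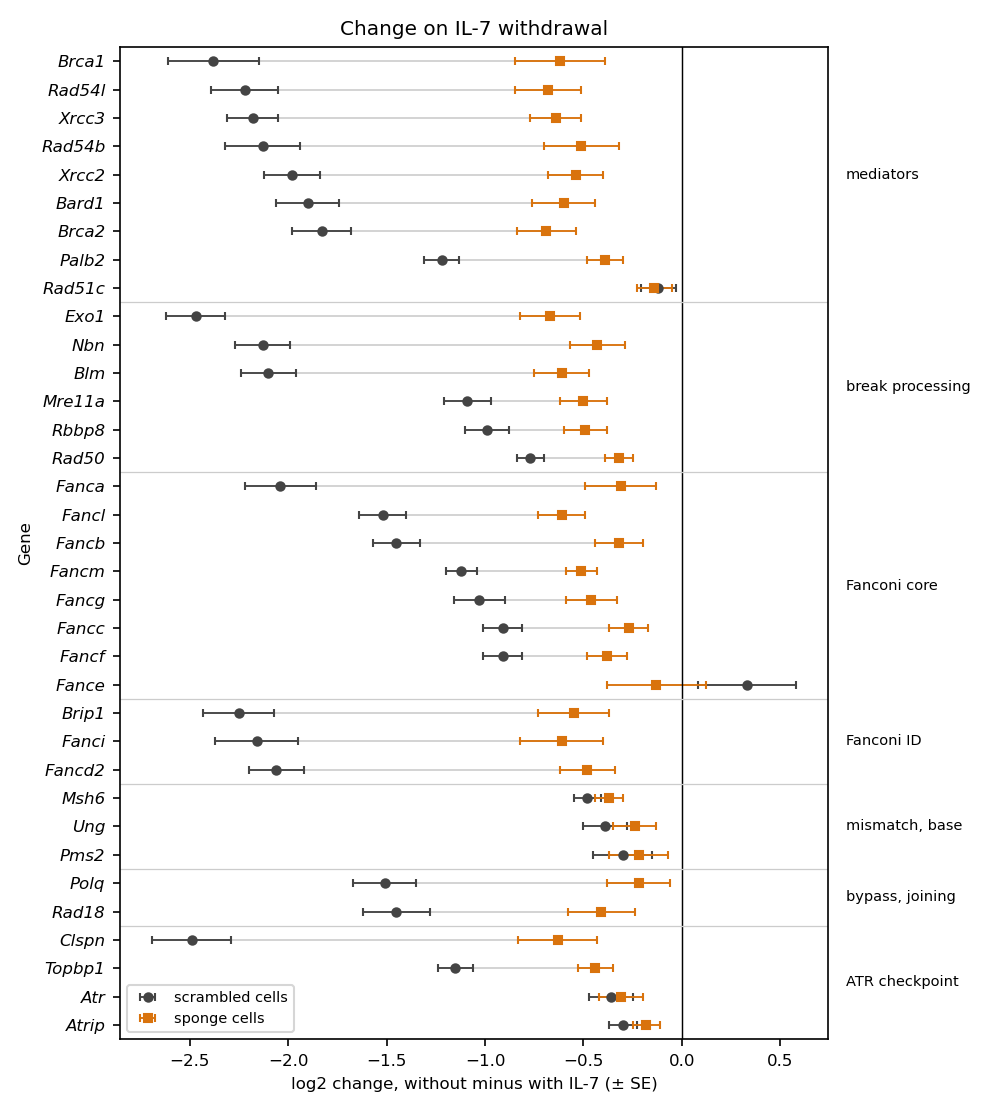
Log2 change on IL-7 withdrawal ± SE (limma, n = 2 arrays a group) for each of the 35 genes, grouped by role, in scrambled cells (grey circles) and sponge cells (orange squares). Clspn, Exo1 and Brca1 lie farthest left in scrambled cells, at -2.49, -2.47 and -2.38, and no sponge value lies below -0.69.

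With IL-7 present, the sponge and scrambled cells were compared directly. The test called 0 of the 35 genes (limma, lowest adjusted p = 0.123, for Fancf), with 1.13% of all tested genes called in either direction and 0.314% called higher and 0.815% lower. At an unadjusted p under 0.05, 7 of the 35 were higher and 0 lower, against 9.91% and 9.54% of all tested genes. That count of 7 was 19 without either scrambled array without IL-7, 4 without sponge replicate 1 of either group or sponge replicate 2 without IL-7, 2 without sponge replicate 2 with IL-7, and 15 under normexp background correction. All 35 log2 differences were nevertheless above 0, from 0.04 to 0.44 with a median of 0.28 (all tested genes, 0.01), and for 31 genes both sponge arrays lay above both scrambled arrays, as for 27.3% of all tested genes, with 23.3% apart in the other direction. After 36 h without IL-7, 29 of the 35 were higher in sponge cells and 0 lower, against 16.7% of all tested genes higher and 15.3% lower. The median was 1.22 (all tested genes, -0.05), 21 genes were higher by at least 1 log2 unit, and the arrays did not overlap for 34 genes, a pattern of 32.4% of all tested genes, with 40.3% apart in the other direction. For 34 genes the sponge arrays without IL-7 lay above the scrambled arrays without IL-7 and below the sponge arrays with IL-7, an order found for 22.4% of all tested genes. The reference list of cycling cells was higher for 8 of 8 genes without IL-7, with a median of 1.51. These comparisons share arrays with the withdrawal comparisons, so they are not separate evidence.

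**Figure D4:**
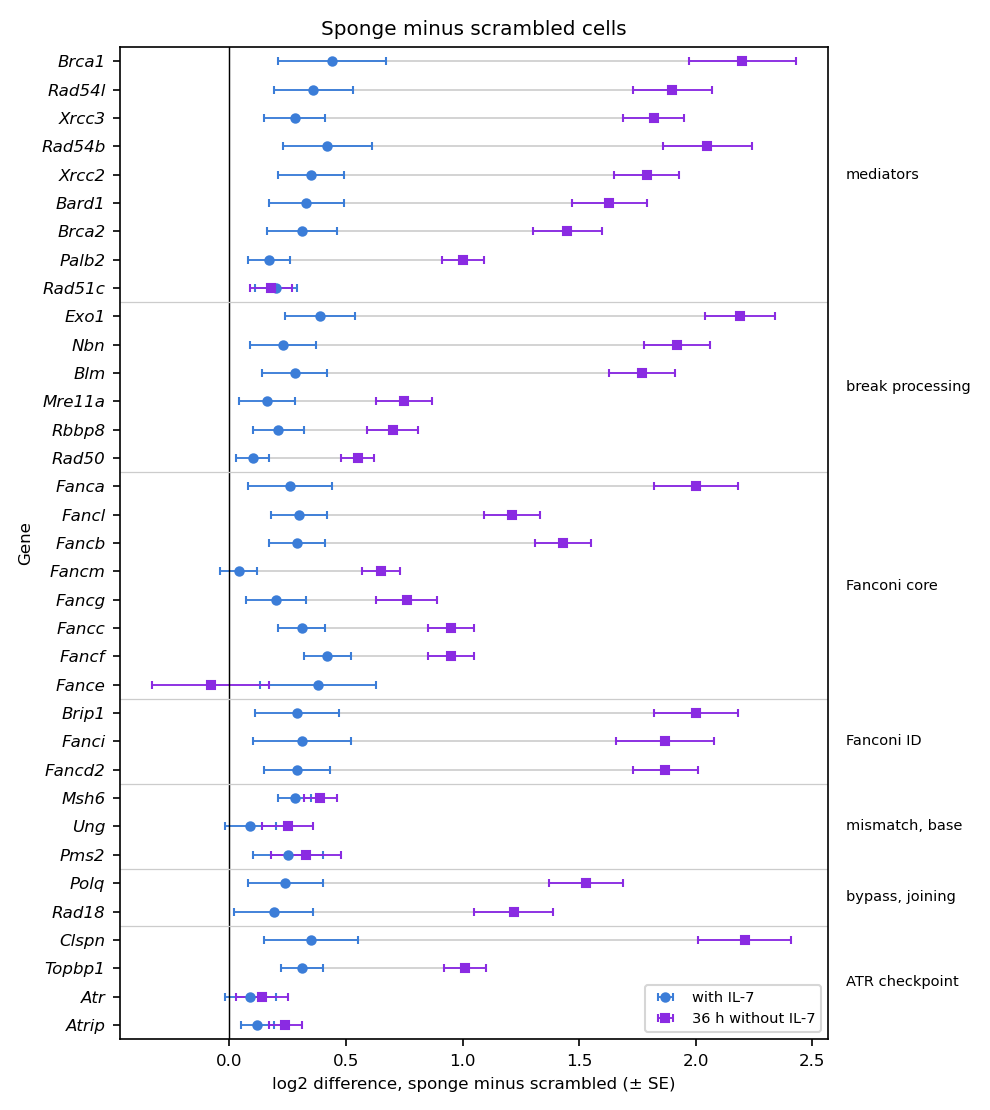
Log2 difference between sponge and scrambled cells ± SE (limma, n = 2 arrays a group) for each of the 35 genes, with IL-7 (blue circles) and after 36 h without IL-7 (purple squares). With IL-7 the values run from 0.04 to 0.44, and without IL-7 from -0.08 for Fance to 2.21 for Clspn.

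Among the 9 mediators of recombination and their partners, 8 fell in scrambled cells (median of the group, -1.98), 6 fell in sponge cells (median -0.60), and 8 were called for the difference. Brca1, a ubiquitin ligase that directs broken ends into recombination, has its probe on the minus strand at chr11:101359283-101363319 (mm9) and spans 4037 genomic bases with its 60 bases. Its levels on replicates 1 and 2 were -1.24 and -0.95 in scrambled cells with IL-7, -3.15 and -3.79 in scrambled cells without IL-7, -0.76 and -0.54 in sponge cells with IL-7, and -1.22 and -1.32 in sponge cells without IL-7. The scrambled arrays without IL-7 were far below all others, and the sponge arrays without IL-7 overlapped the scrambled arrays with IL-7. The change of Brca1 on withdrawal was -2.38 ± 0.23 in scrambled cells, a 5.20-fold fall (adjusted p = 0.000669), and -0.62 ± 0.23 in sponge cells (adjusted p = 0.110), with a difference of 1.76 ± 0.32 (adjusted p = 0.0419). Bard1, the partner that BRCA1 needs for ligase activity, changed by -1.90 in scrambled and -0.60 in sponge cells, and all 3 of its probes fell in scrambled cells (-2.05 to -1.40).

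Brca2, a mediator that binds single-stranded DNA, fell by 1.83 in scrambled and by 0.69 in sponge cells. Palb2, which bridges BRCA1 and BRCA2, fell by 1.22 and by 0.39. Both were called for the difference, at 1.15 and 0.83. Xrcc2 and Xrcc3, which also act in recombination, had log2 changes of -1.98 and -2.18 in scrambled cells and of -0.54 and -0.64 in sponge cells, all called. Rad54l, a motor protein that drives strand invasion, fell by 2.22 in scrambled and by 0.68 in sponge cells.

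Rad54b, a relative of Rad54l (probe at chr4:11542714-11542773, plus strand, mm9), had levels of 2.24 and 2.29 in scrambled cells with IL-7, 0.43 and -0.16 in scrambled cells without IL-7, 2.72 and 2.65 in sponge cells with IL-7, and 2.27 and 2.09 in sponge cells without IL-7. The sponge cells without IL-7 thus overlapped the range of scrambled cells grown with it. The fall was 2.13 ± 0.19 log2 units in scrambled cells (adjusted p = 0.000590), the sponge value was -0.51 ± 0.19 (adjusted p = 0.120), and without IL-7 the sponge cells were higher by 2.05 ± 0.19, or 4.14-fold (adjusted p = 0.00144).

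Rad51c, which acts in recombination with Xrcc2 and Xrcc3, was the exception in this group. The levels of Rad51c were 4.45 and 4.26 in scrambled cells with IL-7, 4.28 and 4.18 without, 4.52 and 4.58 in sponge cells with IL-7, and 4.36 and 4.46 without. The scrambled groups overlapped, and the change in scrambled cells was -0.12 ± 0.09 (adjusted p = 0.315), with a difference between sponge and scrambled cells of -0.02 ± 0.13 (adjusted p = 0.949). Its single probe (chr11:87190997-87191056, minus strand, mm9) was designed to an Ensembl transcript and opens with 16 bases of alternating T and G, a run that 71 of 55681 probes on the array hold (0.128%). Whether other transcripts bind this probe was not tested.

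All 6 genes of break processing and unwinding fell in scrambled cells (median -1.60), 5 fell in sponge cells (median -0.50), and 3 were called for the difference. Exo1, an exonuclease of end resection and of mismatch repair (probe at chr1:177838682-177838741, plus strand, mm9), had levels of 3.54 and 3.50 in scrambled cells with IL-7, 1.28 and 0.82 without, 3.89 and 3.94 in sponge cells with IL-7, and 3.30 and 3.18 without. No groups overlapped, and the order from high to low was sponge with IL-7, scrambled with IL-7, sponge without and scrambled without. Exo1 fell by 2.47 ± 0.15 in scrambled cells, or 5.55-fold (adjusted p = 0.000280), and by 0.67 ± 0.15 in sponge cells (adjusted p = 0.0286), with a difference of 1.80 ± 0.22 (adjusted p = 0.0306). Blm, the helicase that dissolves joined DNA molecules, changed by -2.10 in scrambled and -0.61 in sponge cells.

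The MRN complex, which senses broken ends, is made of the nuclease Mre11a, the tether Rad50 and the regulator Nbn, and these changed by different amounts in scrambled cells. Nbn (probe at chr4:15906456-15906515, plus strand, mm9) had levels of 0.28 and 0.17 in scrambled cells with IL-7, -1.72 and -2.08 without, 0.49 and 0.42 in sponge cells with IL-7, and 0.13 and -0.08 without. Its fall was 2.13 ± 0.14 in scrambled cells (adjusted p = 0.000314), its change in sponge cells was -0.43 ± 0.14 (adjusted p = 0.0815), and the difference was 1.69 ± 0.20 (adjusted p = 0.0306). Rad50 (probe at chr11:53463096-53463155, minus strand, mm9) had levels of 2.91 and 2.90 in scrambled cells with IL-7, 2.14 and 2.13 without, 3.02 and 2.99 in sponge cells with IL-7, and 2.72 and 2.65 without. The Rad50 replicates lay close together and no groups overlapped, but the steps were small. Rad50 fell by 0.77 ± 0.07 in scrambled cells (adjusted p = 0.000496) and by 0.32 ± 0.07 in sponge cells (adjusted p = 0.0205), and its difference of 0.45 ± 0.09 was not called (adjusted p = 0.0534). Mre11a fell by 1.09 and 0.50, and Rbbp8, the CtIP protein that starts resection with the MRN complex, fell by 0.99 and 0.49. Neither was called for the difference (adjusted p = 0.113 and 0.145).

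Of the 8 genes of the Fanconi core complex and its anchor on DNA, 7 fell in scrambled cells (median -1.08), 3 fell in sponge cells (median -0.35), and 4 were called for the difference. Fanca, a scaffold of the complex (probe at chr8:125792210-125792269, minus strand, mm9), had levels of 2.47 and 2.33 in scrambled cells with IL-7, 0.63 and 0.09 without, 2.74 and 2.59 in sponge cells with IL-7, and 2.40 and 2.31 without. Sponge cells without IL-7 overlapped scrambled cells with IL-7 here too. Fanca fell by 2.04 ± 0.18 in scrambled cells, or 4.12-fold (adjusted p = 0.000553), its change in sponge cells was -0.31 ± 0.18 (adjusted p = 0.278), and the difference was 1.73 ± 0.26 (adjusted p = 0.0313). Fancl, the ubiquitin ligase of the complex, fell by 1.52 in scrambled cells and by 0.61 in sponge cells. Fancb, which with FANCL forms the catalytic module, fell by 1.45 in scrambled cells and changed by -0.32 in sponge cells, a value that was not called. Fancm, the DNA translocase that anchors the complex, fell by 1.12 and 0.51 and had the smallest called difference, 0.61 ± 0.11 (adjusted p = 0.0416).

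Fancc, Fancf and Fancg, other subunits of the core complex, fell by 0.91, 0.91 and 1.03 in scrambled cells and were not called for the difference (adjusted p = 0.0637, 0.0968 and 0.145). Fance, which links the core complex to FANCD2 (probe at chr17:28463401-28463460, plus strand, mm9), had levels of 2.69 and 3.49 in scrambled cells with IL-7, 3.42 and 3.42 without, 3.46 and 3.48 in sponge cells with IL-7, and 3.45 and 3.23 without. The array of scrambled replicate 1 with IL-7 was low, and the gap of 0.80 to its replicate was the largest within any group over the 35 genes. The Fance change in scrambled cells was 0.33 ± 0.25 (adjusted p = 0.319). Without scrambled replicate 2 with IL-7 it was 0.73 (adjusted p = 0.00654), which rests on the low array alone. A second Fance probe, at chr17:28455292-28455351, gave -0.32 in scrambled cells (adjusted p = 0.0422 over probes), so the probes did not have the same sign.

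The FANCI and FANCD2 pair and the helicase Brip1 (FANCJ), which partners BRCA1, had similar values. All 3 fell in scrambled cells, by 2.06 to 2.25, none was called in sponge cells (-0.61 to -0.48), and all 3 were called for the difference (1.55 to 1.70). Brip1 (probe at chr11:86011372-86011431, minus strand, mm9) had levels of 0.20 and 0.23 in scrambled cells with IL-7, -1.74 and -2.32 without, 0.51 and 0.51 in sponge cells with IL-7, and -0.05 and -0.02 without. Fancd2 (probe at chr6:113541170-113541229, plus strand, mm9) had levels of 0.63 and 0.61 in scrambled cells with IL-7, -1.24 and -1.65 without, 0.89 and 0.94 in sponge cells with IL-7, and 0.43 and 0.43 without. In both genes the 4 groups were apart, and the scrambled arrays without IL-7 were the lowest. The fall of Brip1 in scrambled cells was 4.76-fold (log2 change -2.25 ± 0.18, adjusted p = 0.000451) and that of Fancd2 4.18-fold (-2.06 ± 0.14, adjusted p = 0.000312).

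Fanci depended on the probe. Its brighter probe, for the RefSeq transcript (chr7:86595076-86595135, mm9), changed by -2.16 ± 0.21 in scrambled cells (adjusted p = 0.000744) and by -0.61 in sponge cells. The other probe, at chr7:86554409-86554468, was designed to an Ensembl transcript. It had levels of -3.74 to -4.49 over the 8 arrays and a change of -0.43 in scrambled cells (adjusted p = 0.0994 over probes). Of the 13 genes with several kept probes, none had probes called in opposite directions in any comparison. Fancc had changes of -0.91 and -0.29 at its probes in scrambled cells, and Atr -0.36 and 0.26.

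**Figure D5:**
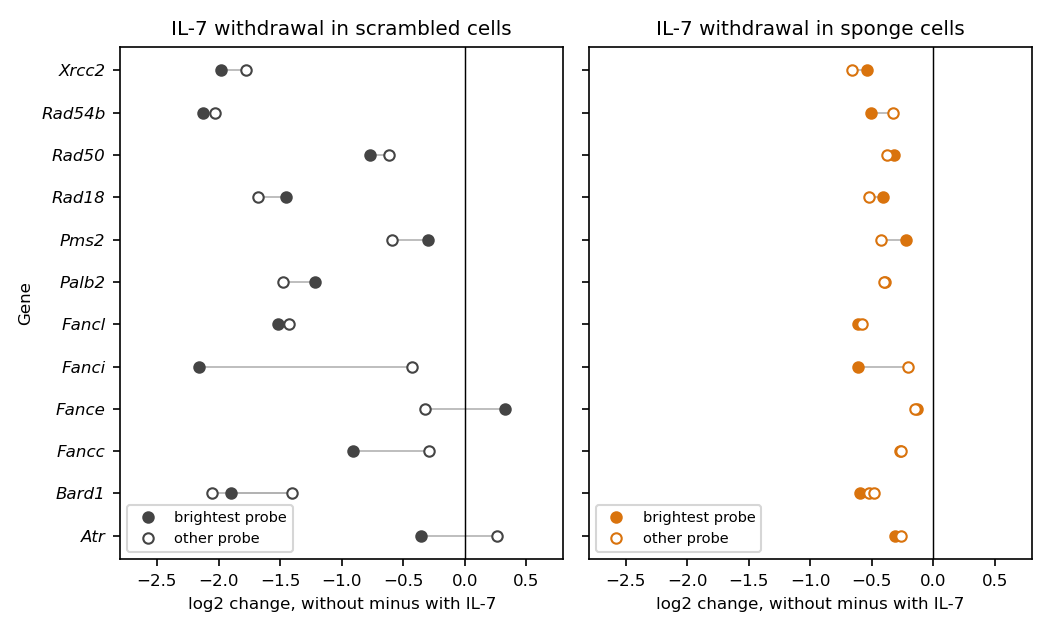
Log2 change on IL-7 withdrawal for the genes with several probes well above background on all 8 arrays, in scrambled cells (left) and sponge cells (right). Filled points are the brightest probe of a gene, which stands for it in the text, and open points its other probes. In scrambled cells the probes of Fanci lie far apart, at -2.16 and -0.43, and those of Fance and Atr on either side of 0.

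The genes placed under mismatch and base repair, Msh6, Pms2 and Ung, had the smallest median change of the 7 role groups in scrambled cells. Exo1, which also acts in mismatch repair, was placed under break processing and changed by -2.47. Of the 3, 2 fell in scrambled cells (median -0.39), 1 fell in sponge cells, 1 was higher in sponge cells without IL-7 and 0 were called for the difference (values from 0.08 to 0.16). Msh6, which recognises base mismatches (probe at chr17:88390143-88390202, plus strand, mm9), had levels of 5.41 and 5.41 in scrambled cells with IL-7, 4.97 and 4.89 without, 5.69 and 5.69 in sponge cells with IL-7, and 5.38 and 5.26 without. Its 4 groups did not overlap, and its replicates lay close together. Msh6 fell by 0.48 ± 0.07 in scrambled cells (adjusted p = 0.00342) and by 0.37 ± 0.07 in sponge cells (adjusted p = 0.0201), with a difference of 0.11 ± 0.10 (adjusted p = 0.566). Pms2, a subunit of the nicking complex (probe at chr5:144692034-144692093, plus strand, mm9), had levels of 1.93 and 2.37 in scrambled cells with IL-7, 1.82 and 1.88 without, 2.38 and 2.43 in sponge cells with IL-7, and 2.23 and 2.13 without. The wide gap within scrambled cells with IL-7 was larger than the change of -0.30 ± 0.15 (adjusted p = 0.144), while its dimmer second probe changed by -0.59 (adjusted p = 0.00656 over probes). Ung, which removes uracil from DNA and acts in antibody diversification, fell by 0.39 ± 0.11 in scrambled cells (adjusted p = 0.0311), and its sponge change was -0.24 ± 0.11 (adjusted p = 0.189).

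Polq, the polymerase of an error-prone joining route, and Rad18, the ligase that marks PCNA at stalled forks, both fell in scrambled cells. Neither was called in sponge cells at its brightest probe. Polq (probe at chr16:37095392-37095451, plus strand, mm9) had levels of 1.87 and 1.74 in scrambled cells with IL-7, 0.54 and 0.06 without, 2.09 and 2.00 in sponge cells with IL-7, and 1.89 and 1.76 without. Rad18 (probe at chr6:112570622-112570681, minus strand, mm9) had levels of 1.60 and 1.35 in scrambled cells with IL-7, 0.27 and -0.22 without, 1.66 and 1.66 in sponge cells with IL-7, and 1.28 and 1.22 without. For Polq the sponge arrays without IL-7 overlapped scrambled cells with IL-7, while for Rad18 they lay below. The log2 change of Polq was -1.51 ± 0.16 in scrambled and -0.22 ± 0.16 in sponge cells, with a difference of 1.29 ± 0.23 (adjusted p = 0.0413), and that of Rad18 was -1.45 ± 0.17 and -0.41 ± 0.17, with a difference of 1.04 ± 0.25 that was not called (adjusted p = 0.0734).

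The ATR checkpoint, which slows replication when single-stranded DNA builds up, changed unevenly, and all 4 of its genes fell in scrambled cells. Clspn, the adaptor that lets ATR activate its effector kinase (probe at chr4:126270723-126270782, plus strand, mm9), had levels of 1.02 and 0.91 in scrambled cells with IL-7, -1.20 and -1.83 without, 1.34 and 1.31 in sponge cells with IL-7, and 0.71 and 0.68 without. All 4 groups were apart. By the brightest probe of each gene, Clspn had the largest fall of the 35 genes in scrambled cells, 2.49 ± 0.20 log2 units or 5.60-fold (adjusted p = 0.000424). Its sponge change was -0.63 ± 0.20 (adjusted p = 0.0715), and its difference was the largest, 1.86 ± 0.28 (adjusted p = 0.0315). Topbp1, the activator of ATR, fell by 1.15 and by 0.44, with a called difference of 0.71.

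Atrip, the partner that brings ATR to DNA (probe at chr9:108962343-108962402, minus strand, mm9), had levels of 2.15 and 2.18 in scrambled cells with IL-7, 1.85 and 1.87 without, 2.25 and 2.32 in sponge cells with IL-7, and 2.16 and 2.04 without. The scrambled arrays without IL-7 were again the lowest, by a small step. The Atrip change was -0.30 ± 0.07 in scrambled cells (adjusted p = 0.0188) and -0.18 ± 0.07 in sponge cells (adjusted p = 0.135). The kinase gene Atr fell by 0.36 ± 0.11 in scrambled cells (adjusted p = 0.0449), with a sponge change of -0.31 ± 0.11 (adjusted p = 0.107). The differences of Atr and Atrip were 0.05 ± 0.16 and 0.12 ± 0.11, neither called (adjusted p = 0.888 and 0.541).

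Of 36 further genes of these pathways, 33 were measured. In scrambled cells 19 of them fell and 3 rose (median -0.61), against 27.4% and 20.7% of all tested genes. In sponge cells 6 of 33 fell and 0 rose (median -0.21), a share of falls near the 15.2% of all tested genes. The largest falls were those of Lig1, the ligase that seals replicated and repaired strands, at -3.01, and Timeless, a fork protection protein, at -2.93. The largest rises were those of Smug1, a uracil-removing glycosylase, at 0.73, and Rad52, which anneals single strands, at 0.52. For the difference 9 were higher and 0 lower, against 4.32% and 0.951% of all tested genes. Without IL-7, 20 were higher in sponge cells and 2 lower, against 16.7% and 15.3% (Rad52 at -0.55 and Smug1 at -0.38). With IL-7 only Hus1, a subunit of the checkpoint clamp, was called, higher by 0.53 (adjusted p = 0.0479).

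Within groups, the scrambled cells without IL-7 were the most variable for the repair genes, with a median gap of 0.28 log2 units between the arrays, against 0.11 in scrambled cells with IL-7, 0.05 in sponge cells with IL-7 and 0.07 in sponge cells without. Replicate 2 of the scrambled cells without IL-7 was below replicate 1 for 31 of the 35 repair genes and for 8 of the 8 genes of cycling cells. In sponge cells without IL-7, replicate 2 was below for 30 of the 35 repair genes. With IL-7 the count was 22 in scrambled cells and 12 in sponge cells. The shares over all tested genes were not counted. Over all tested genes the most variable group was instead scrambled cells with IL-7, with 1169 genes more than 1 log2 unit apart, against 193 to 519 in the others. The repair genes lie on 14 chromosomes, with at most 5 on 1 chromosome.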

How the data were processed

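RNA of 8 wk3 cultures was measured on one-colour Cy3 Agilent arrays. The deposited scanner files hold a processed signal, an intensity on a linear scale, made by the authors with Agilent Feature Extraction (10.7.1.1 per the submitters' processing notes, 10.7.3.1 per the file headers), which is not scaled between arrays. The series' deposited value table, likewise in intensity units, tracked these signals (r = 0.999 to 0.9999 across probes per array, column medians 16.87 to 16.88 intensity units), and the method behind it is not given in the sources used here. Its values gave the same numbers of calls among the 35 genes as quantile normalization in every comparison, so these settings are not separate checks. Control and outlier spots (128 to 277 per array) were left out and 0 spots were saturated. Signals were put on a log2 scale, the 75th percentile of each array was subtracted, and spots of a probe were averaged. Probes that both arrays of 1 group or more showed well above background were kept (30987 of 55681), and the brightest kept probe stood for a gene. Probes outside the set were named from RefSeq by accession (27190), symbol (3576) or synonym (565), and 24300 kept the file's name. Probe positions are those of the files, on mm9, and no exon annotation of that build was used. The 4 group means were fitted with limma 3.58.1 in R 4.3.3 (4 residual degrees of freedom), two-sided, with Benjamini-Hochberg adjustment over all 21339 genes, and the procedure was tested on simulated data. The replicate number marks the repetition of the experiment in the submitters' description, and deviations of same-numbered arrays correlated weakly (r = 0.0173 to 0.131 over genes), so the pairing rests on that description. Within each role, array values are given for the genes with the largest and smallest change on withdrawal in scrambled cells, for the 6 largest differences and for the 4 largest sponge effects without IL-7. The genes, their roles and the lists were chosen with earlier results of these data known. Alternatives covered background correction, normalization, the dim-probe filter, the probe rule, blocks and leaving out each array.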

Additional observations from a re-analysis of the deposited data

Results flagged for a closer look

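The change on IL-7 withdrawal differed between sponge and scrambled cells, by the interaction term of the limma fit, for 21 of the 35 genes, each less reduced in sponge cells. Of all tested genes, 4.32% were called in that direction and 0.951% in the other. The log2 differences were 1.86 for Clspn, 1.80 for Exo1, 1.76 for Brca1, 1.73 for Fanca, 1.70 for Brip1, 1.69 for Nbn, 1.63 for Rad54b, 1.58 for Fancd2, 1.55 for Fanci and Rad54l, and 1.54 for Xrcc3. They were 1.49 for Blm, 1.43 for Xrcc2, 1.30 for Bard1, 1.29 for Polq, 1.15 for Brca2, 1.13 for Fancb, 0.91 for Fancl, 0.83 for Palb2, 0.71 for Topbp1 and 0.61 for Fancm. Each of the 21 was above 0 in both replicates, but those values entered the call and are not separate evidence. With the replicate number as a block, with the slide row as a block or without the filter on dim probes, 0 of them were called. The calls also depended on single arrays.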

How the results depend on the processing

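The falls in scrambled cells (29 to 32 genes in each setting but quantile normalization and the deposited value table, with 28) and the higher levels in sponge cells without IL-7 kept their direction in every setting run, while the calls in sponge cells and for the difference did not hold in all. For withdrawal in sponge cells, against 16 genes, 4 were called under quantile normalization and with the deposited value table, 1 without the filter on dim probes, 5 with the slide row as a block, and 0 to 19 when single arrays were left out. For the difference, against 21 genes, 0 were called without the filter, with the replicate block and with the slide row block, and 0 to 19 when single arrays were left out. The replicate block changed the count of no other comparison by more than 1.5 times. Without scrambled replicate 2 with IL-7, Fance alone was called higher on withdrawal in scrambled cells (0 to 1 gene over the arrays left out), higher in sponge cells with IL-7 (0 to 1) and lower for the difference (0 to 1). The median of the sponge effect without IL-7 was 1.07 to 1.47, and that of the difference 0.81 to 1.27, with single arrays left out. The slide row block could not be fitted for the sponge comparisons. With 1 array left in a group, that array is assumed to vary like the other groups. The cause of these shifts was not tested. No value for a called gene changed sign. With 2 arrays a group the precision is set by their number.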
